A study of Rattus norvegicus with 23 samples.

Results

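Granins and the enzymes that cut and finish peptide hormones were measured in the rat area postrema, a small circumventricular organ of the dorsal medulla that lies outside the blood-brain barrier. The set comprised 9 genes: Chga, Chgb, Scg2, Scg3, Scg5, Pcsk1, Pcsk2, Cpe and Pam. Members were all probe sets whose only gene symbol in the platform annotation was 1 of these names, which gave 10 probe sets for 8 genes out of 31099 probe sets on the array, 20826 of which had exactly 1 gene symbol. Pam was represented by 3 probe sets and the other 7 genes by 1 each. Pcsk1 was not analysed here, because no probe set carried it as its single symbol in the annotation used. Of the 10 probe sets, 8 passed the filter on low signal and were tested, and Pam probe sets 2 and 3 did not.

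The 23 arrays fell into 5 groups, and every array was hybridised with RNA from a pool of 5 male rats. Spontaneously hypertensive rats (SHR, 5 arrays) and Wistar Kyoto rats (WKY, 5 arrays), the normotensive strain commonly set against SHR, were 10 to 13 weeks old and had no treatment named in their labels. Sprague Dawley rats aged 10 to 12 weeks were controls (4 arrays), were food restricted for 48 h (fasted, 5 arrays) or were dehydrated for 72 h (4 arrays). Pooling hides the spread between the animals of a pool, so the SDs given here are between pools. The labelling reagent was described differently for the Sprague Dawley arrays and for the SHR and WKY arrays, so strain and labelling cannot be told apart between these 2 sets. The comparisons asked how the hypertensive strain differed from WKY, and how hunger and thirst changed the area postrema of Sprague Dawley rats.

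Peptide hormones and neuropeptides are made as precursors that travel through the regulated secretory pathway and are stored in dense-core granules. Granins are acidic proteins that aggregate with the cargo while granules form, and some of them are themselves cut into active peptides. Inside the granule the convertases encoded by Pcsk1 and Pcsk2 cut at basic residues, carboxypeptidase E (Cpe) trims those residues from the ends, and Pam, the amidating enzyme, converts a terminal glycine into the amide that many peptides need for activity. The area postrema holds peptidergic and catecholaminergic neurons that sense circulating hormones and osmolality.

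The promoter sequences below are shown for the members that differed between the strains (Chgb, Pam) and for the 3 that moved together from array to array (Scg2, Scg3, Cpe). They are RefSeq sequences of build GRCr8, read 5′ to 3′ on the strand of the gene, and 7 of the 9 genes had an entry (all but Chga and Pcsk1). Chgb is shown at chr3:140496462-140496711 (plus strand), Scg3 at chr8:85322485-85322734 (minus strand) and Cpe at chr16:29796457-29796706 (plus strand), each with the 250 bases before the annotated start. For Pam at chr9:105570250-105570279 (plus strand) and Scg2 at chr9:88256971-88257000 (minus strand), 30 bases around the motif are shown. The Chgb, Scg3 and Cpe windows end where the annotated gene begins. The windows of Scg2 and Pam lie inside the annotated genes (chr9:88251531-88257208 and chr9:105445812-105719287), before a start within the gene. Capitals mark the palindromic cAMP response element TGACGTCA or its half-site TGACG, which was searched on both strands (CGTCA on the other strand) and is contained in the full element.
Chgb: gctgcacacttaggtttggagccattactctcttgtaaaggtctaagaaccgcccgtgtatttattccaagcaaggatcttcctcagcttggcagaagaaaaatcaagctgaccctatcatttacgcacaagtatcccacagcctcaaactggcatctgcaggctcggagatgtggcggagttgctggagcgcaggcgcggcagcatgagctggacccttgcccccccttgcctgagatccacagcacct
Pam: tccgaatgatgacTGACGcgggtctgcgcg
Scg2: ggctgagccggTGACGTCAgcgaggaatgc
Scg3: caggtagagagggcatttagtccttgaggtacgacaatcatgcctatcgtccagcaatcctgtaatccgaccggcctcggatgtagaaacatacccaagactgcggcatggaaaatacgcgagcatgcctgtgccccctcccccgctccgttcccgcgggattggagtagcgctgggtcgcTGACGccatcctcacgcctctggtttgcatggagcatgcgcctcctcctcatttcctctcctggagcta
Cpe: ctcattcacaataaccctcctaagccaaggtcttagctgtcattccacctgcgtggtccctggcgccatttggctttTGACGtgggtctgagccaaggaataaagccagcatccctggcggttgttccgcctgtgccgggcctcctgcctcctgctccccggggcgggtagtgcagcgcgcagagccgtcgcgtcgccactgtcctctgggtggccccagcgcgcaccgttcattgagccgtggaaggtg
The full element lay between 123 and 116 bases before the start used for Scg2, a start inside the annotated gene. No other member of the 7 had these letters in its 250 bases. Of 33469 rat promoters, searched over the same 250 bases, 531 (1.59%) held the full element. The half-site was present in 6 of the 7 member promoters (Scg2, Scg3, Scg5, Pcsk2, Cpe and Pam) and in 18.2% of all promoters. It lay 69 to 65 bases before the start of Scg3 and 173 to 169 before that of Cpe. For Pam it lay 105 to 101 bases before the start used. That start, like those used for Scg2 and Scg5, is inside the annotated gene. The 250 bases before Chgb held none of these letters but held 1 GC box (GGGCGG, here as CCGCCC on the other strand), as did 30.5% of all promoters in either orientation. A TATA box spelled TATAAA, in either orientation, was found in 0 of the 7 windows and in 12.9% of all promoters. These matches describe letters in a window and do not show that a factor binds there.

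All arrays had the same trimmed mean, 100.03, and array medians ran from 39.81 to 44.48. Markers of the area postrema were measured in the tissue: Calcr, the calcitonin receptor, gave 95.6 to 166.0 and Casr, the calcium-sensing receptor, 162.1 to 299.8 across the 23 arrays. Of the 8 such markers on the array 7 were tested, but Glp1r (19.5 to 49.3) and Avpr1a (24.3 to 52.7) were dim, and the leptin receptor Lepr (7.2 to 31.9) was under the filter. Some arrays stood apart in peptide genes best known from the hypothalamus. The vasopressin precursor Avp gave 9.2 to 17.3 on arrays 1 and 2 of both SHR and WKY and 170.8 to 1497.3 on their arrays 3 to 5. It gave 1286.6 and 1298.9 on dehydrated arrays 1 and 2 against 159.1 and 244.5 on dehydrated arrays 3 and 4. The choroid plexus marker Ttr ran from 44.2 to 7953.2 over all arrays. Differences without the arrays high in Avp, or within each set, are given for some members only. These are mainly Chgb and Pam between the strains and Scg2, Scg3, Cpe and Chgb in dehydrated rats. Differences of genes outside the members are given with all arrays only. The part of Ttr in any result was not tested.

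Among the granins, Chgb (chromogranin B) had the clearest order over the groups. Its signal was lowest in SHR, at 919.7 ± 42.9 (SD, n = 5), followed by 1072.7 ± 59.8 (n = 5) in WKY, 1330.1 ± 240.4 (n = 4) in dehydrated, 1361.1 ± 52.0 (n = 4) in control and 1423.3 ± 93.4 (n = 5) in fasted Sprague Dawley rats. SHR and WKY arrays did not overlap, whereas each later pair of neighbours in this order did. Chga (chromogranin A) was lowest in WKY, at 295.8 ± 18.1 (SD, n = 5), and lay between 340.6 and 363.9 in the other 4 groups, whose arrays overlapped. Scg2 (secretogranin II, the precursor of secretoneurin) averaged 835.4 ± 59.8 (n = 4) in control, 882.9 ± 87.8 (n = 5) in fasted, 918.1 ± 140.2 (n = 5) in SHR, 1041.2 ± 154.7 (n = 4) in dehydrated and 1044.5 ± 24.7 (n = 5) in WKY. Every pair of neighbours in the order of Scg2 overlapped.

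Scg3 (secretogranin III, which binds other granins at the granule membrane) averaged between 1229.0 in WKY and 1344.6 in fasted rats in 4 groups, and 1549.9 ± 143.7 (SD, n = 4) in dehydrated rats. Its step from fasted to dehydrated exceeded the sum of their SDs, although the arrays overlapped. Scg5, which encodes 7B2, the chaperone of the convertase PC2, varied least of the tested members, with all 23 arrays between 1480.0 and 1825.0. Its highest mean was 1694.6 ± 111.4 (n = 5) in SHR and its lowest 1561.2 ± 33.2 (n = 5) in WKY.

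Of the enzymes, Pcsk2, the gene of the convertase PC2, gave low signals of 31.9 to 70.3 on the 23 arrays, and all neighbouring groups overlapped. Its mean was 44.2 ± 14.9 (SD, n = 4) in control and 60.2 ± 9.2 (n = 5) in SHR at the extremes of the order. Cpe ran from 2619.4 ± 149.6 (n = 5) in WKY to 3429.9 ± 420.7 (n = 4) in dehydrated rats, again with overlap between all neighbours. Pam probe set 1 was higher at each step without overlap, from SHR (794.1 ± 26.7, n = 5) to WKY (903.3 ± 30.4, n = 5) to control (1074.4 ± 27.8, n = 4), and the 3 Sprague Dawley groups overlapped. Pam probe sets 2 and 3 gave 1.0 to 31.9 and 0.2 to 11.4. Their means over the 23 arrays, 12.5 and 2.7, lay under the mean signal required for testing, 29.5 for the SHR and WKY arrays and 28.1 for the Sprague Dawley arrays, so they were read as near background. Signals of different probe sets were not set against each other, since probes differ in how well they bind.

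**Figure D1:**
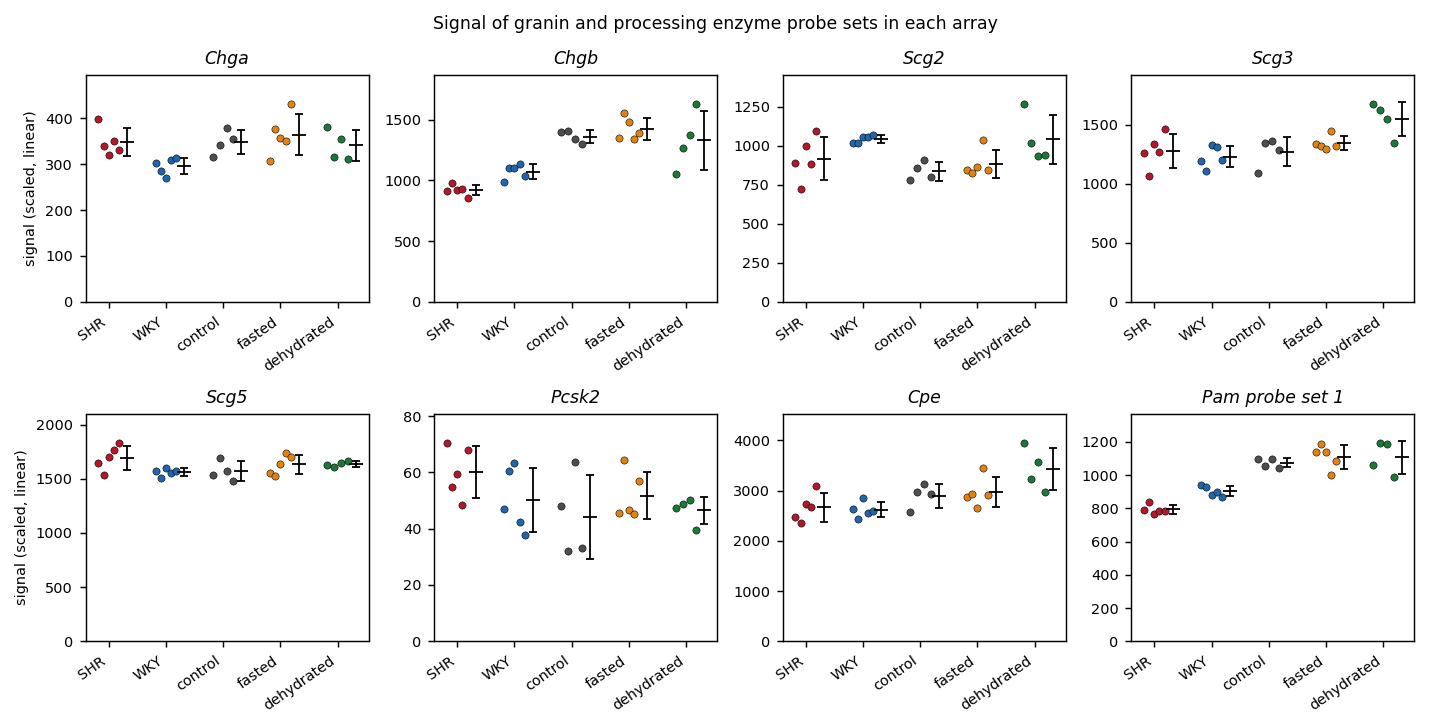
Signal (linear scale, axis from 0) of the 8 tested probe sets on each of the 23 arrays; points are arrays, and the black bar beside them is the group mean with its SD. Chgb and Pam probe set 1 show SHR below WKY with no overlap, Chga shows SHR above WKY with no overlap, and Scg2, Scg3 and Cpe have their highest arrays in the dehydrated group.

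Between the strains, Chgb and Pam were lower in SHR than in WKY. For Chgb the SHR arrays read 912.5, 977.6, 918.1, 932.2 and 858.1, and the WKY arrays read 985.8, 1100.6, 1102.6, 1135.4 and 1039.3. Every SHR array lay below every WKY array. The log2 difference, SHR minus WKY, was -0.22 (SE 0.055, 95% interval -0.33 to -0.10), with an adjusted p of 0.0247 in limma (moderated linear model, Benjamini-Hochberg over 18625 probe sets). For Pam probe set 1 the SHR arrays read 791.8, 839.2, 768.4, 784.0 and 787.3, and the WKY arrays read 940.7, 928.5, 881.8, 896.3 and 869.3. These arrays did not overlap either. The log2 difference of Pam was -0.18 (SE 0.049, interval -0.29 to -0.08), with an adjusted p of 0.04 by limma. Differences are on the log2(signal + 16) scale, which understates the change of dim probe sets, the more so the dimmer they are.

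Chga showed the opposite direction without passing the test. Its SHR arrays read 397.8, 339.6, 320.4, 350.0 and 329.8 against 301.3, 284.6, 270.3, 309.7 and 313.2 in WKY, so all SHR arrays were above all WKY arrays. The log2 difference was 0.22 (SE 0.068, interval 0.08 to 0.36), with an adjusted p of 0.0784 by limma. The remaining granins did not pass: Scg2 had -0.20 (adjusted p = 0.224), Scg5 0.11 (0.267) and Scg3 0.05 (0.8), all by limma. Of the enzymes, Pcsk2 had 0.21 (adjusted p = 0.407) and Cpe 0.02 (adjusted p = 0.918) by limma. The 95% interval was -0.12 to 0.16 for Cpe and -0.04 to 0.47 for Pcsk2.

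In all, 2 of the 8 tested members passed the adjusted threshold of 0.05, both lower in SHR, where 5.12% of all tested probe sets passed and 2.92% passed as lower. Arrays that did not overlap were found for 3 of 8 members, against 6.37% of all. An unadjusted p under 0.05 was reached by 5 of 8 members and by 17.3% of all probe sets. The members did not share a direction: 5 were higher and 3 lower in SHR, with a median log2 difference of 0.04 against 0.005 over all probe sets. The calls of Chgb and Pam depended on the fit. Both were lost when the variance was estimated without trend and robust settings (adjusted p = 0.0895 for Chgb and 0.122 for Pam), with the Gapdh ratio as a covariate (0.0689 and 0.11) and with all 23 arrays in 1 limma model (0.106 and 0.0562). With the split of arrays 1 and 2 against 3 to 5 as a block, an alternative chosen after seeing the data, both passed limma at adjusted p = 0.0191 and 0.0192. With arrays 3 to 5 only, also chosen after seeing the data, Chgb differed by -0.27 (adjusted p = 0.0494) and Pam by -0.17 (0.194), and with arrays 1 and 2 only by -0.14 (0.558) and -0.19 (0.264), by limma.

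Leaving out 1 array at a time also ended calls, while the log2 difference stayed between -0.25 and -0.19 for Chgb and between -0.20 and -0.17 for Pam. The limma call of Chgb was lost without SHR array 1 (adjusted p = 0.0551), SHR array 3 (0.0571), SHR array 5 (0.0694), WKY array 2 (0.0662), WKY array 3 (0.0578) or WKY array 4 (0.0673). That of Pam was kept only without SHR array 2 (adjusted p = 0.0311 by limma), and without each of the other 9 arrays it lay between 0.0514 and 0.108. Chga stayed above the threshold in every alternative run, with adjusted p from 0.0587 to 0.42.

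**Figure D2:**
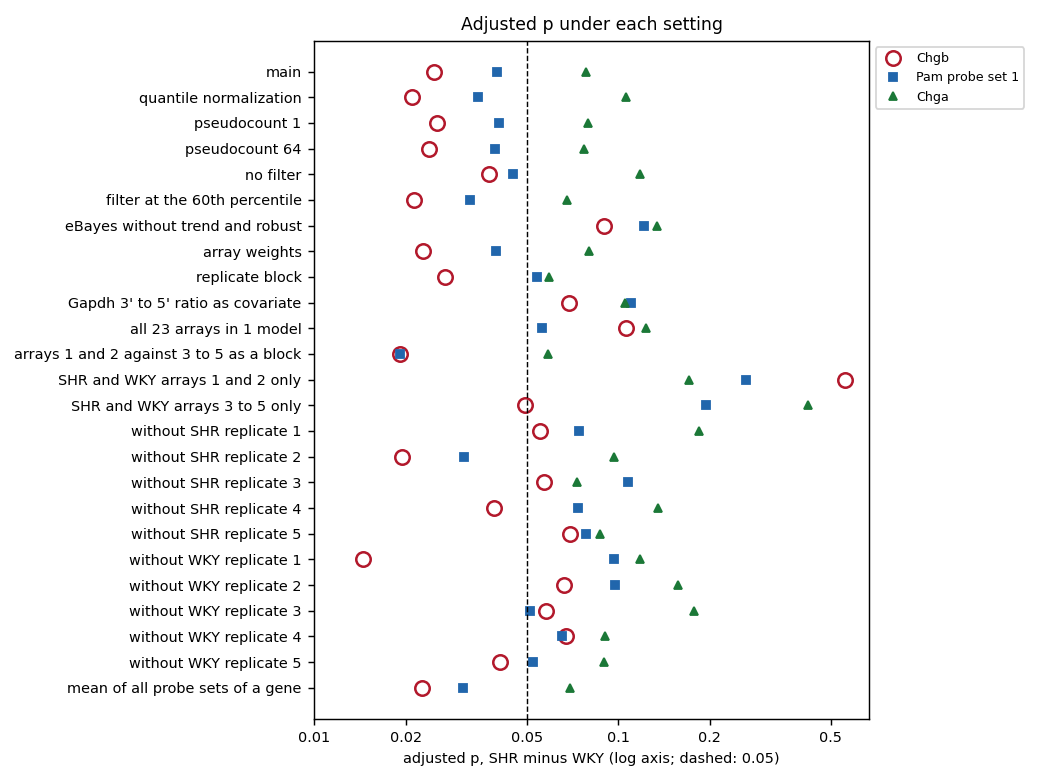
Adjusted p (limma, log axis) of Chgb, Pam probe set 1 and Chga for SHR minus WKY under the main fit and each alternative, 1 line per setting; the dashed line is the threshold of 0.05. Chgb and Pam move from side to side of the line, between 0.0145 and 0.558 for Chgb and between 0.0192 and 0.264 for Pam, while Chga stays to the right of it.

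Cell type markers also differed between the strains. The mean of 8 fibroblast and meningeal markers was lower in SHR by 0.34 on the log2 scale (exact permutation p = 0.00794, adjusted p = 0.0953 over 12 measures) and that of 8 microglial markers by 0.27 (exact permutation p = 0.0159, adjusted p = 0.0954). All 8 markers of each of these lists had a negative difference, and 3 of each passed limma. The mean of 13 neuronal markers differed by -0.07 (exact permutation p = 0.0556, adjusted p = 0.167). Of these 13, 6 had a positive and 7 a negative difference, and Thy1 (-0.64) was the 1 marker that passed. The mean of 5 markers of cholinergic neurons of the adjoining medulla was 0.10 higher in SHR (exact permutation p = 0.0317, adjusted p = 0.127). Of these, Prph passed limma (72.6 ± 10.2 against 37.4 ± 2.8; 0.73, adjusted p = 0.0001), while Slc5a7 differed by 0.03 and Calca by -0.12. Chat and Slc18a3, under the filter in these arrays, averaged 27.8 and 19.3 in SHR against 25.0 and 26.3 in WKY. On these log2 values, centred over the 23 arrays, the neuronal mean ran from -0.19 to -0.05 in SHR and from -0.08 to -0.04 in WKY. Their part in the differences of Chgb and Pam was not tested, and in bulk tissue fewer cells of a type and less RNA per cell cannot be told apart.

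Dehydration was accompanied by higher mean signals of Scg2, Scg3 and Cpe, none of which passed the test over all probe sets. Scg2 read 1266.6, 1017.7, 937.8 and 942.7 on the dehydrated arrays and 777.9, 856.7, 909.8 and 797.4 on the control arrays. All dehydrated arrays were above all control arrays. The log2 difference was 0.30 (SE 0.093, interval 0.11 to 0.50), with an unadjusted p of 0.00371 and an adjusted p of 0.196 in limma. Scg3 read 1673.8, 1627.7, 1549.7 and 1348.5 against 1094.9, 1346.6, 1362.0 and 1286.8. Dehydrated array 4 fell within the control range and the other 3 lay above it. The log2 difference of Scg3 was 0.28 (SE 0.08, interval 0.12 to 0.45), with an adjusted p of 0.166 by limma. Cpe read 3940.1, 3236.1, 3574.2 and 2969.2 in dehydrated rats against 2566.0, 2981.0, 3131.6 and 2925.1 in controls. Here too array 4 overlapped with the controls, and the log2 difference was 0.24 (SE 0.09, interval 0.05 to 0.42; adjusted p = 0.312 by limma).

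The other 5 tested members differed by -0.05 to 0.08 between dehydrated and control rats. Chgb was the most dispersed of them in the dehydrated group, with 1049.4, 1266.6, 1376.8 and 1627.4 against 1399.6, 1406.4, 1342.0 and 1296.2 in controls. The array with the lowest Chgb was the one with the highest Scg2. No member passed the adjusted threshold in limma (0 of 8, where 0.166% of all probe sets did), 3 of 8 had an unadjusted p under 0.05 (11.7% of all) and 1 of 8 had arrays that did not overlap (6.69% of all). The direction was positive for 6 members and negative for 2, with a median of 0.07 against -0.009 over all probe sets. Regardless of sign, the median size was 0.07 for the members and 0.1 over all probe sets.

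The 3 differences were smaller without the dehydrated arrays that were high in Avp and Oxt, the precursors of vasopressin and oxytocin. With dehydrated arrays 3 and 4 only, a choice made after seeing the data, the log2 differences from control were 0.17 for Scg2 (adjusted p = 0.805 by limma), 0.19 for Scg3 (0.774) and 0.17 for Cpe (0.812). Without dehydrated array 1 alone, Scg2 differed by 0.21 and Chgb by 0.06. The neuronal markers averaged 0.11 higher in dehydrated than in control rats (exact permutation p = 0.114, adjusted p = 0.456), and 10 of the 13 had a positive difference. The 8 fibroblast and meningeal markers averaged 0.34 lower (exact permutation p = 0.0857, adjusted p = 0.456), with 7 of 8 negative. The 5 cholinergic markers of the adjoining medulla averaged 0.24 higher (exact permutation p = 0.171, adjusted p = 0.513), and 0 passed limma. Dehydrated array 1, the highest in Scg2, Scg3 and Cpe, also had the highest centred means of the group for these cholinergic markers (0.55), oligodendrocytes (0.52), astrocytes (0.36) and neurons (0.24). Ttr read 2714.8, 4206.5 and 7953.2 on dehydrated arrays 1 to 3 and 394.2 on array 4. Leaving arrays 1 and 2 out thus keeps the highest Ttr, on array 3, which had the lowest Scg2 of the group. Control array 3, the highest control in Scg2, Scg3 and Cpe, read 6558.6 for Ttr against 330.5 to 855.5 on the other controls. The part of tissue composition, Ttr included, in the granin values was not tested.

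After 48 h of food restriction no member passed the test against control. All 8 differences were positive, from 0.03 for Cpe to 0.19 for Pcsk2, with a median of 0.06 against 0.003 over all probe sets. Regardless of sign, the median size was 0.06 for the members and 0.09 over all probe sets. Neuronal markers averaged 0.07 higher as well (exact permutation p = 0.111, adjusted p = 0.381), with 10 of 13 positive. Microglial markers averaged 0.12 lower (exact permutation p = 0.0317, adjusted p = 0.38) and fibroblast and meningeal markers 0.28 lower (0.0794, 0.381). The part of these markers in the member differences was not tested. Groups overlapped for all 8 members, whereas 2.34% of all probe sets did not overlap. In limma 0 of 8 had an adjusted p under 0.05, where 0.0215% of all probe sets did, and 0 of 8 had an unadjusted p under 0.05, where 7.19% did. The 95% intervals show which differences the arrays could still hold: -0.13 to 0.25 for Chgb, -0.11 to 0.26 for Scg2, -0.07 to 0.24 for Scg3, -0.15 to 0.21 for Cpe and -0.10 to 0.19 for Pam. The interval of Pcsk2 was the widest, at -0.10 to 0.49. Scg2 on fasted array 4 read 1037.8, above the 822.6 to 862.8 of the other 4 fasted arrays.

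Set directly against fasted rats, dehydrated rats also had higher mean signals of Scg2 (0.23, adjusted p = 0.406), Scg3 (0.20, 0.399) and Cpe (0.21, 0.429), by limma. Their unadjusted p-values were 0.0172, 0.0156 and 0.0252, and 10.0% of all probe sets were under 0.05. No member passed the adjusted threshold (0 of 8, where 0.0322% of all probe sets did), and all 8 overlapped (3.23% of all did not). With dehydrated arrays 3 and 4 only, the differences were 0.09 for Scg2 (adjusted p = 0.967 by limma), 0.10 for Scg3 (0.964) and 0.14 for Cpe (0.957). Without dehydrated array 1 alone, that of Scg2 was 0.13. The comparisons with control and with fasted share the dehydrated arrays and are not independent of each other. The differences of Pam and Scg5 between dehydrated and fasted rats were -0.01 (interval -0.15 to 0.14) and 0.004 (-0.12 to 0.13). The Gapdh ratio averaged 0.41 in dehydrated and 0.22 in fasted rats (exact permutation p = 0.0635, adjusted p = 0.762). Astrocyte markers averaged 0.18 higher in dehydrated rats (exact permutation p = 0.159, adjusted p = 0.81). Neuronal markers averaged 0.04 higher (0.476, 0.81) and oligodendrocyte markers 0.11 lower (0.492, 0.81). The part of these measures in the member differences was not tested.

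**Figure D3:**
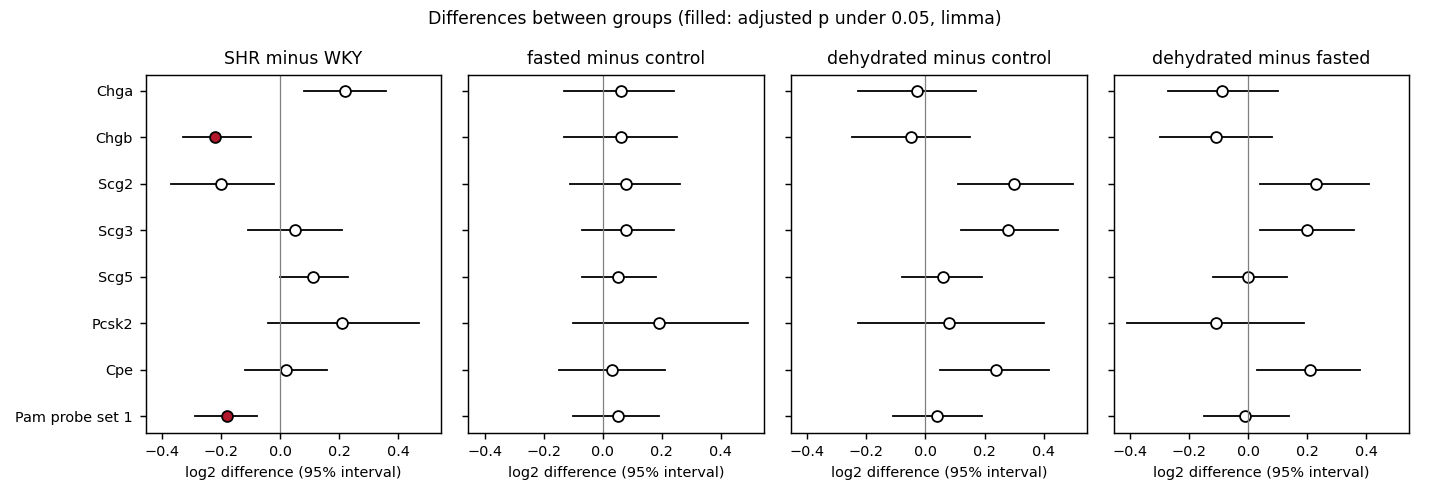
Log2 difference of each tested member with its 95% interval in the 4 comparisons; filled red points have an adjusted p under 0.05 in limma. Only Chgb (-0.22) and Pam probe set 1 (-0.18) are filled, both for SHR minus WKY, and Scg2, Scg3 and Cpe lie to the right of 0 in both comparisons of dehydrated rats.

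Across strains, Pam separated the 2 sets of arrays. All 13 Sprague Dawley arrays read 992.0 to 1191.0 on Pam probe set 1 and all 10 SHR and WKY arrays read 768.4 to 940.7. It was the 1 member of the 8 tested without overlap between the 2 sets, and 3.5% of all tested probe sets did not overlap, 2.23% with Sprague Dawley above. Chgb came close, with 1049.4 to 1627.4 in Sprague Dawley against 858.1 to 1135.4. Tissue markers differed between the 2 sets as well. Mean Ttr was 78.8 in SHR and 102.6 in WKY against 1547.3 to 3817.1 in the Sprague Dawley groups. The centred mean of fibroblast and meningeal markers was -0.51 and -0.16 against 0.13 to 0.47. That of microglial markers went the other way, 0.06 and 0.34 against -0.22 to -0.06. Since the labelling text also changed with the strain, the origin of the step in Pam cannot be told apart, and it was not tested.

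Within groups, Scg2, Scg3 and Cpe moved together from pool to pool. After subtracting each group's mean, the deviations of the 23 arrays correlated at Pearson r = 0.84 (Spearman rho = 0.83) for Scg3 and Cpe, 0.80 (0.64) for Scg2 and Cpe and 0.79 (0.74) for Scg2 and Scg3. With the 2 arrays farthest from the median left out, r was 0.81, 0.75 and 0.72, and it was 0.87, 0.83 and 0.88 within the 10 SHR and WKY arrays and 0.84, 0.79 and 0.71 within the 13 Sprague Dawley arrays. Scg5 followed Scg2 less closely (r = 0.59, rho = 0.42), with 0.85 in SHR and WKY and 0.35 in Sprague Dawley. Chgb went the other way, with r = -0.63 (rho = -0.52) to Scg2 and -0.62 (-0.49) to Cpe. Without dehydrated arrays 1 and 4, the 2 farthest, the value for Chgb and Scg2 was -0.50. Chga and Pcsk2 each had r = 0.11 with Scg2. These are descriptions of 28 pairs over arrays that share amplification, scaling and dissection, and they carry no test.

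**Figure D4:**
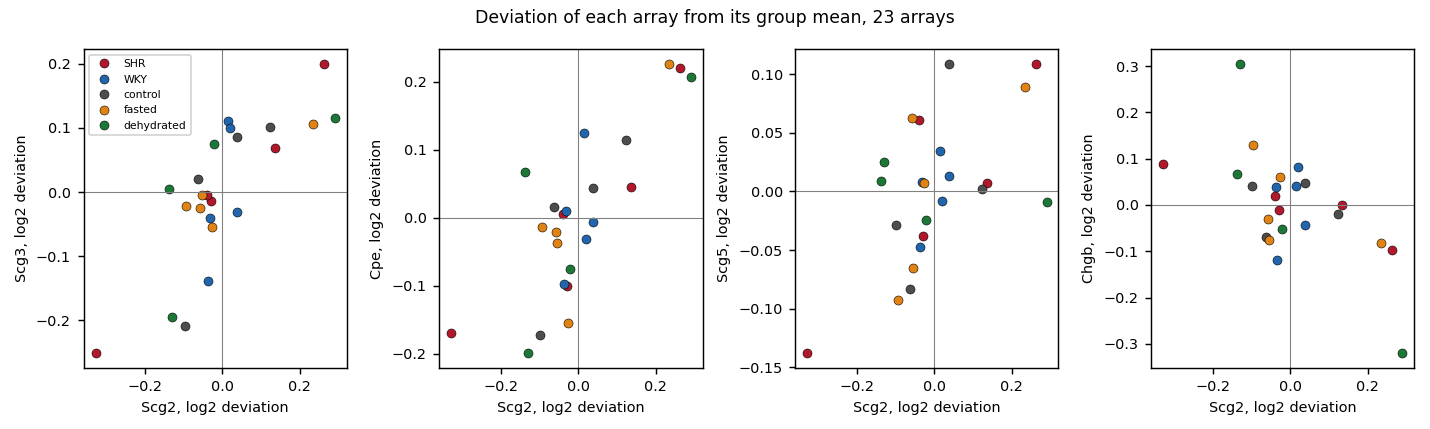
Deviation of each of the 23 arrays from its own group's mean, log2 scale, for Scg2 (horizontal) against Scg3, Cpe, Scg5 and Chgb (vertical); colours give the group. Points rise from lower left to upper right for Scg3 and Cpe (r = 0.79 and 0.80) and fall for Chgb (r = -0.63).

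The genes outside the set whose within-group deviations were most like each member were found among 13756 probe sets over the same 23 arrays. Picking the highest of so many yields high r values by itself, so these are descriptions and carry no test. For Chgb they were Hspg2, which encodes the basement membrane proteoglycan perlecan (r = 0.86, rho = 0.75), and Chrna7, a nicotinic receptor subunit (0.79, 0.44). For Scg2 they were Fxyd7, a regulator of the sodium pump in neurons (0.89, 0.77), and Ndp, the gene of norrin (0.88, 0.86). Idh1, the cytosolic isocitrate dehydrogenase, appeared both for Scg3 (0.87, 0.84) and for Cpe (0.84, 0.81), with Kifap3 (0.83, 0.82) second for Scg3 and Prnp, the prion protein gene, first for Cpe (0.87, 0.87). For Pam they were Pdlim4 (0.76, 0.73) and Anxa4 (0.74, 0.76), and for Chga Lcp1 (0.78, 0.79) and Nop53 (0.77, 0.77). Scg5 was most like the neuropeptide gene Nmu (0.76, 0.69) and Uck1 (0.75, 0.77), and Pcsk2 like Ppcs (0.72, 0.68) and Rnf123 (0.72, 0.71).

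Other genes of the secretory pathway were read from lists. Between SHR and WKY, 1 of 18 tested granule genes rose, where 5.12% of all probe sets passed in either direction: Cadps2, a priming factor for granule release, with 81.5 ± 6.1 in SHR and 56.5 ± 9.0 in WKY (SD, n = 5 each; log2 difference 0.43, adjusted p = 0.0103 by limma). Among 22 peptide precursors, the substrates of the enzymes, 1 rose and 1 fell. Cartpt, the precursor of CART peptides, read 2033.1 ± 156.2 in SHR and 1447.7 ± 46.9 in WKY (0.48, adjusted p = 2.22e-05 by limma). Tac1, the precursor of the amidated peptide substance P, read 136.1 ± 18.0 in SHR and 260.2 ± 41.6 in WKY (-0.86, adjusted p = 4.13e-05 by limma). None of 15 other processing enzymes passed (the smallest p was that of Ctsl, -0.14, adjusted p = 0.146 by limma), nor did any of 15 synaptic vesicle genes (Vamp1, 0.20, adjusted p = 0.0732 by limma) or of 8 inducers of granin genes (Crem, 0.18, adjusted p = 0.176 by limma). At an unadjusted p under 0.05 these 3 lists had 2, 3 and 1 genes, beside 17.3% of all probe sets. The granule list had 5 of 18 and the precursor list 4 of 22.

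In dehydrated rats, 1 of 18 granule genes rose over control, where 0.166% of all probe sets passed in either direction: Vgf, a granin-like protein that is itself cut into peptides, with 512.7 ± 27.9 against 343.6 ± 49.5 (SD, n = 4 each; log2 difference 0.57, adjusted p = 0.0152 by limma). Its 4 dehydrated arrays read 546.4, 504.6, 520.0 and 479.8 and its control arrays 361.8, 393.6, 342.5 and 276.4, with no overlap. Of 22 peptide precursors, 1 rose, Nmu (171.5 ± 14.0 against 104.7 ± 21.2; 0.65, adjusted p = 0.0167 by limma), the precursor of neuromedin U. None of 16 other processing enzymes passed (Qpct, the glutaminyl cyclase, 0.42, adjusted p = 0.399 by limma), nor any of 14 synaptic vesicle genes (Syn1, -0.26, adjusted p = 0.452 by limma) or of 9 inducers (Fos, 0.34, adjusted p = 0.376 by limma). At an unadjusted p under 0.05 these 3 lists had 2, 0 and 2 genes, beside 11.7% of all probe sets. The granule list had 3 of 18 and the precursor list 7 of 22.

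None of the 5 lists had a gene past the limma threshold between fasted and control or between dehydrated and fasted rats. Unadjusted p-values under 0.05 were found for 10 of 79 genes of the lists in the first case (7.19% of all probe sets) and 15 of 79 in the second (10.0% of all). The smallest p of each list in the fasted comparison belonged to Rab3a (0.17, adjusted p = 0.657), Pcsk7 (-0.34, 0.516), Trh (-0.43, 0.432), Syn2 (0.21, 0.699) and Egr1 (0.33, 0.672), by limma. Between dehydrated and fasted rats they were Vgf (0.39, adjusted p = 0.198), Rnpep (-0.36, 0.348), Nmu (0.56, 0.102), Syp (0.19, 0.455) and Fos (0.27, 0.534), by limma.

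**Figure D5:**
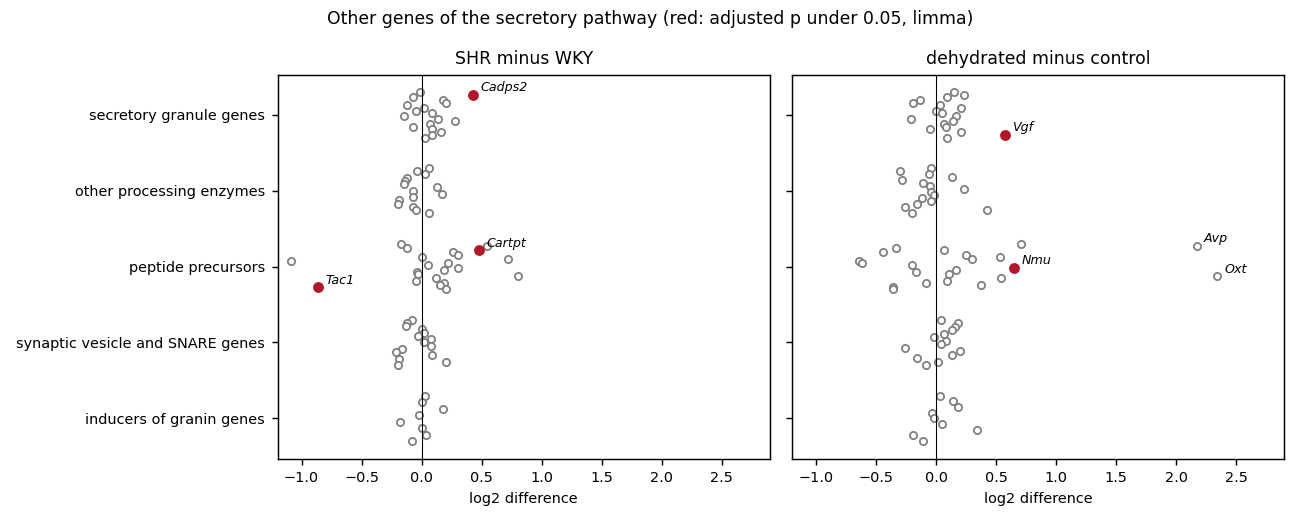
Log2 difference of every tested gene of the 5 lists, 1 point per gene, for SHR minus WKY (left) and dehydrated minus control (right); red points passed an adjusted p of 0.05 in limma. Cadps2 (0.43), Cartpt (0.48) and Tac1 (-0.86) are red on the left and Vgf (0.57) and Nmu (0.65) on the right, while Avp and Oxt lie farthest to the right without passing.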

How the data were processed

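Area postrema RNA was measured on 23 one-colour Affymetrix rat arrays. The deposited table holds 1 signal intensity per probe set and array, made with the Affymetrix software GCOS 1.2, per the submitters' processing notes. Which algorithm and scaling target it ran with is not given in the sources used here. The deposited intensities have a mean of 100.03 on every array once 2% at each end is left out, which shows a scaling that can hide a change shared by most genes. Symbols came from the platform annotation, and promoters from RefSeq (GRCr8).

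The 57 control probe sets and those with a mean signal under the 40th percentile were left out. limma 3.58.1 (R 4.3.3; lmFit, eBayes with trend and robust) was run on log2(signal + 16), two-sided, with Benjamini-Hochberg adjustment over 18625 probe sets, on 10 SHR and WKY arrays and on 13 Sprague Dawley arrays (3 contrasts). Marker means, on log2 values centred over the arrays, were compared by exact permutation of the arrays (Python 3.11.15, scipy 1.17.1). On simulated data limma recovered 83% of shifts of 0.5 and 100% of shifts of 1 for SHR minus WKY, and 81% and 98% for fasted minus control. Only bright probe sets, with signals well above the filter, were shifted, and the noise was independent between probe sets. Shifts as small as the member differences were not simulated, nor were the contrasts with dehydrated rats, so these rates do not give the power for them.

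The members and all lists were chosen with earlier results of these data known. Lists were read by the probe set with the highest mean per gene; the genes named are those that passed (up to 3 by smallest p) or else the 1 with the smallest p, and 2 genes most like each member. Alternatives changed the normalization, pseudocount, filter, variance model, array weights, probe set choice, blocks, covariate and arrays. The number of arrays limits the precision. The labels do not say whether pools came from separate cohorts. The p-values set group differences against the spread between these arrays and take the arrays as independent.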

Additional observations from a re-analysis of the deposited data

Results flagged for a closer look

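Among 50 sets of values (10 probe sets in 5 groups), 2 had an array far from the rest of its group by Dixon's criterion, and chance alone marks about 1 set in 20. Scg2 on fasted array 4 read 1037.8, while the other 4 fasted arrays read 822.6 to 862.8. That array also had the highest Cpe (3459.4) and Scg3 (1447.5) of the fasted group. Its Ttr was 6342.6 against 152.1 to 571.5 on the other fasted arrays, and its centred mean of cholinergic markers of the adjoining medulla was 0.41 against -0.30 to 0.11; their part in the Scg2 value was not tested. Pam probe set 2 on SHR array 1 read 31.9, while the other 4 SHR arrays read 7.0 to 13.4, and this probe set was near background in every group.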

How the results depend on the processing

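In SHR minus WKY, 2 members passed in the main fit. The number was 0 with eBayes without trend and robust, 0 with the Gapdh ratio as a covariate, 0 with all 23 arrays in 1 model, 1 with the replicate number as a block, 0 with arrays 1 and 2 only, 1 with arrays 3 to 5 only, and 0 to 2 when 1 array was left out. It was 2 under every other alternative run. The block took away the call of Pam (adjusted p = 0.054 by limma) and kept that of Chgb (0.0269). Same-numbered SHR and WKY arrays, in order of their number, had deviations correlated at 0.16, 0.28, 0.02, -0.0 and 0.04. Of the 5 SHR arrays, 2 correlated best with their own number, arrays 1 and 2, which were low in Avp in both strains. Whether the numbers pair the arrays was left unsettled. In the other 3 comparisons 0 members passed under every alternative, with correlations of -0.17 to 0.06.

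The log2 difference changed sign only in results that did not pass. For SHR minus WKY, Cpe was 0.02 in the main fit, -0.03 with the Gapdh covariate, -0.07 with arrays 1 and 2 only and -0.03 to 0.06 with 1 array left out. For fasted minus control, Chga was -0.003 with the replicate block and -0.02 with control arrays 3 and 4 only, and Cpe was -0.03 with those controls. With 1 array left out, Chga ran from -0.003 to 0.11 and Cpe from -0.03 to 0.07. For dehydrated minus control, Pcsk2 was -0.01 with control arrays 3 and 4 only, and Chgb was 0.14 with dehydrated arrays 3 and 4 only. With 1 array left out, Pcsk2 ran from -0.02 to 0.23, Chgb from -0.15 to 0.06 and Chga from -0.08 to 0.01. For dehydrated minus fasted, Scg5 was -0.03 after quantile normalization and -0.02 with the Gapdh covariate, and Chgb was 0.07 with dehydrated arrays 3 and 4 only. With 1 array left out, Scg5 ran from -0.02 to 0.03 and Pam from -0.04 to 0.04. The cause of these changes was not tested.

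Over all tested probe sets, the number past the threshold ran from 348 (arrays 1 and 2 only) to 1175 for SHR minus WKY (954 in the main fit), 0 to 6 for fasted minus control (4), 2 to 74 for dehydrated minus control (31) and 1 to 10 for dehydrated minus fasted (6). Pcsk2 fell below the filter at the 60th percentile and has no value there.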
